A study of Mus musculus with 2 samples.

Results

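miR-103 and miR-107 are microRNAs (miRNAs), short RNAs that guide Argonaute proteins to messenger RNAs, and they come from 3 mouse genes, Mir103-1, Mir103-2 and Mir107, among the 1178 miRNA hairpins searched here. Their reads were taken as distinct sequences (tags) of 18 to 30 nt that equal a stretch of the hairpin of a member gene, either directly or after 1 to 3 nt had been removed at the 3′ end. In Ia_low, 74 tags with 25295 reads met this rule (0.184% of all reads), and in Ia_high 136 tags with 58617 reads (0.358%). 0 of these tags also fitted another hairpin. The genes were picked with their tailed reads in these libraries already known, so their levels and tails are given as a description and support nothing beyond it.

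The libraries hold small RNA of CD11c-bearing spleen cells from C57BL/6J mice, separated by a cell sorter into cells with little surface Ia (Ia_low) and cells with much of it (Ia_high). Ia is an MHC class II molecule, with which antigen-presenting cells show peptides to helper T cells. The labels name no treatment or allele, call both populations dendritic cells and give 1 library of each. For the age of the mice, and for whether several were pooled, the labels used here have no entry. Without replicates the spread between animals is unknown and no p-value is given. Every interval below is an exact (Clopper-Pearson) 95% interval that covers counting error only, since PCR copies were read and the protocol names no molecular identifiers.

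The Ia_low library held 13739811 reads, of which 2692506 matched a miRNA arm exactly, and the Ia_high library held 16388303 reads, of which 5858070 did. Levels are given in CPM, reads scaled to a total of 1000000 of these exact miRNA reads, so that 0 reads allows up to 1.11 CPM in Ia_low and 0.512 CPM in Ia_high. Among tags read more than once, the most common count was 9 reads in Ia_low and 4 in Ia_high. The labelled cell type was checked on fragments of messenger RNA in the same libraries. A gene was called at a ratio of at least 2-fold with an interval that left out 1. Over all 7124 genes measured, 8.59% were called lower in Ia_low and 6.25% higher. Of 9 measured dendritic cell markers, 6 were called lower in Ia_low and 0 higher (7644 fragments per 1000000 in Ia_low and 14050.0 in Ia_high). H2-Aa, H2-Ab1 and H2-Eb1, 3 of these 6, encode chains of MHC class II, by which the cells were sorted, so they are no independent check. The other 3 were Zbtb46, Flt3 and Irf4. The defining dendritic cell factor Zbtb46 had 1 fragment in Ia_low and 56 in Ia_high, and the growth factor receptor Flt3 had 6 and 163. Of 5 measured monocyte markers, 4 were higher in Ia_low (8225 and 3856 per 1000000). Neutrophil markers had 333 fragments per 1000000 in Ia_low and 78.8 in Ia_high, a ratio of 4.22 (2.58 to 7.05), of which nearly all came from Csf3r with 44 and 23 fragments. T cell markers had 0 in Ia_low and 93.4 in Ia_high, all from Tcf7, which was called lower with 0 and 32 fragments. Plasmacytoid dendritic cell markers had 142 and 233.5, and Tcf4 among them was called lower with 12 and 62 fragments. B cell markers had 21.2 and 46.7, NK cell markers 28.3 and 5.84, and erythroid markers 0 and 5.84, from 16 fragments or fewer in each library. The part of this difference in cell type markers in the results below was not tested.

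A miRNA gene is transcribed as a long RNA from which Drosha and then Dicer cut a short duplex, and 1 strand of it, here the 3p arm, stays in Argonaute. Bases 2 to 8 of the mature strand, the seed, pair with target messages. Enzymes can afterwards add bases to the 3′ end that the genome does not encode: the uridylyltransferases Tut4 and Tut7 add uridine, and Tent2 (Gld2) adds adenosine. miR-103 and miR-107 lie in introns of pantothenate kinase genes, whose enzymes start the synthesis of coenzyme A, and they are known for acting on Dicer1 itself and, in liver and fat, on insulin signalling through Cav1.

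The mature sequences from RefSeq (GRCm38.p6) show why the members are hard to tell apart. They are printed 5′ to 3′ with the seed in capitals.
miR-103-3p: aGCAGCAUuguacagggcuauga
miR-107-3p: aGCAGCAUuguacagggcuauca
miR-103-1-5p: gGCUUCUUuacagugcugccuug
miR-103-2-5p: aGCUUCUUuacagugcugccuug
miR-107-5p: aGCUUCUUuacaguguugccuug
Both 3p arms share the seed GCAGCAU and all 3 of the 5p arms the seed GCUUCUU. Counted from 1 at the 5′ end of the mature strand, the 3p arms of miR-103 and miR-107 differ by G22C alone. The 5p arms of Mir103-1 and Mir103-2 differ by G1A, and those of Mir103-2 and Mir107 by C16U.

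The hairpins themselves differ more, and they are shown because each read was matched against them. The mature 3p arm is in capitals.
Mir103-1 hairpin: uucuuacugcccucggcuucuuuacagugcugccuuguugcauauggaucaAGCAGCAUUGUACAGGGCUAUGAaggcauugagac
Mir103-2 hairpin: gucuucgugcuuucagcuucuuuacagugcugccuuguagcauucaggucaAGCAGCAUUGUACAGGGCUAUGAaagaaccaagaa
Mir107 hairpin: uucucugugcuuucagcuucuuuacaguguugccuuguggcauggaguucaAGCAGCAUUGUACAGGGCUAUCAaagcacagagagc
In GRCm38, Mir103-1 occupies intron 5 of Pank3 (chr11:35782396-35782481, plus strand). Mir103-2 occupies intron 5 of Pank2 (chr2:131288052-131288137, plus strand). Mir107 occupies intron 5 of Pank1 (chr19:34820687-34820773, minus strand). Each gene runs in the direction of its host, and 0 of the annotated transcripts has an exon over any of the 3.

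What can be read from a 3′ end depends on the bases that the genome encodes there. The first 27 bases from the start of the 3p arm are printed with the bases after the shared 21 in capitals.
Mir103-1 window: agcagcauuguacagggcuauGAAGGC
Mir103-2 window: agcagcauuguacagggcuauGAAAGA
Mir107 window: agcagcauuguacagggcuauCAAAGC
A read that starts at base 1 and ends at or before base 21 fits all 3 genes, and a read must reach base 22 to be given to miR-103 or miR-107. Adenosine follows base 22 in all 3 genes, so an adenosine added there by an enzyme looks like an encoded base and is not counted as a tail. Adenosine tails can therefore be seen here on shorter ends only, while a uridine is encoded at none of bases 22 to 27. Shorter ends hide some tails as well. An adenosine added to an end at base 19, or a uridine added to an end at base 20, equals the encoded base.

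Nearly all reads of these genes came from the 3p arm and began at its first base. The 3p arm had 25286 reads in Ia_low and 58601 in Ia_high, and the 5p arm had 9 reads in Ia_low and 16 in Ia_high, which is 0.0356% (0.0163 to 0.0675) of the reads of both arms in Ia_low and 0.0273% (0.0156 to 0.0443) in Ia_high. All 9 of the 5p reads in Ia_low and 15 of the 16 in Ia_high fitted Mir103-2, the remaining read in Ia_high fitted Mir107, and 0 fitted Mir103-1. These few 5p reads are too sparse for a comparison. Of 3p reads, 99.7% began at base 1 in Ia_low and 99.7% in Ia_high, so the seed was the same in almost every read.

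Exact 3p reads, those without a tail, took a smaller share of miRNA reads in Ia_low. They numbered 9839 in Ia_low (3654 CPM) and 31759 in Ia_high (5421 CPM), a ratio of 0.674 (0.659 to 0.690) and a log2 ratio of -0.57, which is short of 2-fold but becomes -1.44 when the libraries are scaled to all reads. It was -0.18 when centred on the median arm and 0.27 by distinct tags, so the direction for the arm depends on the counting. Scaled to exact miRNA reads, reads with a tail went the other way, with 5737 in Ia_low and 4582 in Ia_high per 1000000, a ratio of 1.25 (1.23 to 1.28). That direction also depends on the scaling. The same tailed reads were 0.112% of all reads in Ia_low and 0.164% in Ia_high. Of all tailed miRNA reads they were 1.62% and 1.72%. Together, exact and tailed reads had a ratio of 0.939 (0.925 to 0.953) when scaled to exact miRNA reads. Of 237 miRNA arms whose mean level was 10 CPM or above, 8.86% passed 2-fold on the higher side in Ia_low and 32.5% on the lower side, each with an interval that left out 1. The median log2 ratio of these arms was -0.39, and the 3p arm of miR-103/miR-107 ranked 27 by CPM in Ia_low and 26 in Ia_high. In sorted populations like these, fewer cells that make a miRNA and less of it per cell cannot be told apart.

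miR-103 and miR-107 did not share 1 ratio. Reads that fitted only the miR-103 genes had 7831 exact reads in Ia_low (2908 CPM) and 17995 in Ia_high (3072 CPM), a ratio of 0.947 (0.922 to 0.972). Reads that fitted Mir107 alone had 407 exact reads in Ia_low (151 CPM) and 2057 in Ia_high (351 CPM), a ratio of 0.431 (0.386 to 0.479), which is past the 2-fold mark on the lower side. Its log2 ratio of -1.22 became -0.83, short of 2-fold, when centred on the median arm, and 0.66 by distinct tags, of which there were 4 in Ia_low and 5 in Ia_high. Exact reads that fit all 3 genes, and so end at or before base 21, had 1601 reads in Ia_low (595 CPM) and 11707 in Ia_high (1998 CPM), a ratio of 0.298 (0.282 to 0.314). The lowest ratio thus belonged to reads that ended early. With tailed reads added and the total scaled likewise, the ratios were 1.11 for miR-103, 0.453 for miR-107 and 0.388 for the shared reads. The sign for miR-103 therefore depends on whether tailed reads are counted.

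The 2 miR-103 genes could hardly be separated. Their encoded bases part only at base 25, and the reads long enough to fit Mir103-2 alone numbered 53 in Ia_low and 61 in Ia_high, while those that fit Mir103-1 alone numbered 13 in Ia_low and 6 in Ia_high. An adenosine added to the shared end at base 24 would look like Mir103-2, and an added guanosine like Mir103-1, so these few reads do not show how much either gene gave.

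**Figure D1:**
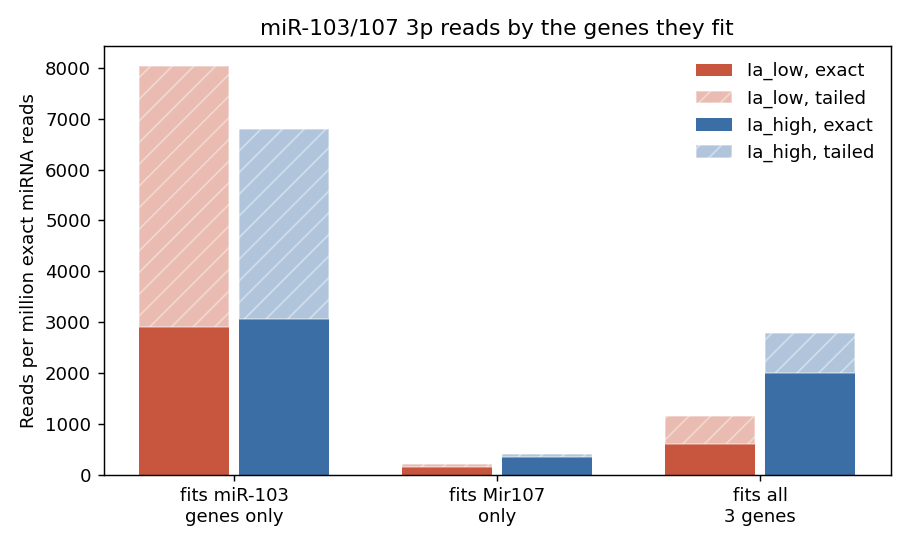
Reads of the miR-103/miR-107 3p arm per 1000000 exact miRNA reads (vertical axis), by the genes they fit (horizontal axis), with Ia_low left of Ia_high. Solid bars are exact reads and hatched bars tailed reads, 1 library per group and no error bars. Exact reads that fit only miR-103 genes reach 2908 in Ia_low and 3072 in Ia_high, while exact reads that fit all 3 genes reach 595 and 1998.

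Within the reads that tell the members apart, miR-107 held a smaller share in Ia_low. It had 407 of 8238 exact reads in Ia_low, or 4.94% (4.48 to 5.43), and 2057 of 20052 in Ia_high, or 10.3% (9.84 to 10.7). The share was smaller in longer reads, in both libraries. Among exact reads of 22 nt it was 18.6% in Ia_low and 30.8% in Ia_high, and among exact reads that end past base 22 it was 0.700% (0.509 to 0.938) in Ia_low and 1.76% (1.55 to 1.99) in Ia_high. Reads counted as miR-107 thus ended at base 22 more often than those counted as miR-103. A read with cytidine at base 22 looks the same whether Mir107 encoded the base or it was added to a shared read of 21 bases. This also holds where an adenosine follows it. How often cytidine was added at this base cannot be read. Cytidine followed the shared 21 bases in 2.17% of cases in Ia_low and 4.56% in Ia_high. After base 22 of miR-103, where it is not encoded, it followed in 0.189% and 0.333%. The part of added cytidine in the reads of miR-107 was not tested.

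Most 3p reads in Ia_low, and fewer in Ia_high, carried bases that none of the 3 genes encodes. The tailed share was 61.1% (60.5 to 61.7) in Ia_low and 45.8% (45.4 to 46.2) in Ia_high, a difference of 15.3 percentage points. Counted by distinct tags in place of reads, the difference was -1.75 points (80.8% in Ia_low and 82.6% in Ia_high). By number of added bases, 43.9% of reads had 1, 16.1% had 2 and 1.08% had 3 in Ia_low, and in Ia_high 34.1% had 1, 10.8% had 2 and 0.864% had 3. The tails were short in both libraries, and a tail of 1 base was the most common.

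Uridine was the main added base. Tails made of uridine only were on 53.7% (53.1 to 54.4) of 3p reads in Ia_low and 37.5% (37.1 to 37.9) in Ia_high. They made up 88.0% of all tailed reads in Ia_low and 81.8% in Ia_high. A tail of 1 uridine was on 42.5% of reads in Ia_low and 31.2% in Ia_high, and a tail of 2 uridines on 11.2% in Ia_low and 6.17% in Ia_high. Uridine followed by adenosine was on 2.78% and 2.34%. Tails of adenosine only were on 2.25% of reads in Ia_low and 4.02% in Ia_high, of cytidine only on 0.158% and 0.288%, and of guanosine only on 0.237% and 0.311%. Uridine tails were thus the most frequent kind in both libraries. The share of adenosine tails over all 3p reads was larger in Ia_high, but it can be read on short ends only, of which Ia_high had more. Among reads that fit all 3 genes, adenosine tails were on 18.3% (16.9 to 19.7) in Ia_low and 14.4% (13.8 to 14.9) in Ia_high. This share also depends on the mix of ends. An end at base 19 cannot show an adenosine tail, because base 20 is an encoded adenosine. Such ends were 0.641% of 3p reads in Ia_low and 5.84% in Ia_high. At base 20 adenosine tails were on 33.2% of reads in Ia_low and 29.6% in Ia_high, and at base 21 on 17.8% and 17.8%.

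**Figure D2:**
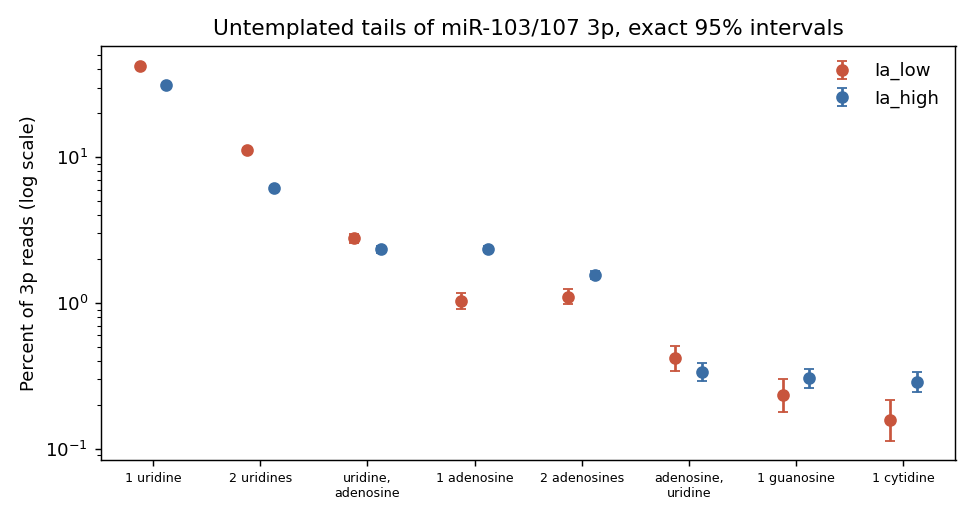
Share of miR-103/miR-107 3p reads with each untemplated tail (vertical axis, percent on a log scale), by tail from 5′ to 3′ (horizontal axis), Ia_low left of Ia_high. Points are 1 library each and bars are exact 95% counting intervals. A tail of 1 uridine stands highest at 42.5% in Ia_low and 31.2% in Ia_high, and a tail of 1 adenosine is at 1.03% and 2.35%.

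The most abundant tags show the tails as they were read. The encoded part is in lower case, the tail in capitals, and T stands for uridine as in the deposited sequences. Those below were chosen by their reads within each kind of end.
encoded to base 22, tail of 1: agcagcattgtacagggctatgT
encoded to base 22, tail of 2: agcagcattgtacagggctatgTT
encoded to base 22, tail of uridine and adenosine: agcagcattgtacagggctatgTA
encoded to base 23, no tail: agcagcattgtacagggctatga
encoded to base 23, tail of 1: agcagcattgtacagggctatgaT
encoded to base 22, no tail: agcagcattgtacagggctatg
shared 21 bases, no tail: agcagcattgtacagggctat
shared 21 bases, uridine tail: agcagcattgtacagggctatT
shared 21 bases, adenosine tail: agcagcattgtacagggctatA
miR-107 to base 22, no tail: agcagcattgtacagggctatc
miR-107 to base 22, tail of 1: agcagcattgtacagggctatcT
miR-107 to base 23, no tail: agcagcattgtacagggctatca
The first of these tags, base 22 of miR-103 with 1 uridine, had the most reads in each library, with 8769 in Ia_low (34.7% of the arm) and 14672 in Ia_high (25.04%). The RefSeq sequence of 23 bases came after it, with 5957 reads in Ia_low (23.6%) and 13303 in Ia_high (22.7%). A search for the RefSeq sequence alone would therefore have found 23.6% of the reads of the arm in Ia_low and 22.7% in Ia_high.

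The tag with 2 uridines had 2767 reads in Ia_low (10.9%) and 3431 in Ia_high (5.86%), and the tag of the 21 shared bases had 1419 (5.61%) and 6918 (11.8%). These tags moved in opposite directions, the longer one taking more of the arm in Ia_low and the shorter one more in Ia_high. A tag of only the first 19 bases went furthest among the abundant ones, with 121 reads in Ia_low and 3174 in Ia_high. The tag of 18 bases, the shortest that the rule admits, had 0 reads in Ia_low and 795 in Ia_high. For miR-107, the untailed tag of 22 bases had 363 reads in Ia_low and 1792 in Ia_high, that of 23 bases 24 and 203, and the tag of 22 bases with 1 uridine 112 and 284.

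Tails sat on particular ends. When the encoded part stopped at base 22, 86.5% of reads were tailed in Ia_low (86.0 to 87.1) and 77.6% in Ia_high (77.1 to 78.2), and the tail was uridine only in 80.6% and 71.0% of the reads. When it stopped at base 23, the RefSeq end, 17.0% were tailed in Ia_low and 11.7% in Ia_high, with uridine only on 15.9% and 10.7%. An end 1 base short of the RefSeq end was thus several times as often uridylated as the RefSeq end itself, in both libraries. At base 24 the tailed share was 39.3% in Ia_low and 26.3% in Ia_high. At base 21, where both kinds of tail can be seen, 47.2% were tailed in Ia_low and 34.9% in Ia_high. There uridine tails were on 20.4% and 14.1% of reads, and adenosine tails on 17.8% and 17.8%, so the difference between the libraries at this end was in uridine tails and tails of mixed bases. The library with the higher tailed share was Ia_low at each of bases 19 to 24, with 25.3% in Ia_low and 7.22% in Ia_high at base 19, and 77.0% and 44.8% at base 20. An adenosine added at base 19 and a uridine added at base 20 equal the encoded base and are not counted. Tailed shares at different ends therefore hold different kinds of tail and are not like values.

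The libraries also differed in where the encoded part ended. It ended at base 22 in 57.2% of 3p reads in Ia_low and 44.3% in Ia_high, at base 23 in 28.5% and 26.1%, at base 21 in 10.6% and 18.1%, and at base 19 in 0.641% and 5.84%. The end at base 22, the most often tailed of these, was thus more common in Ia_low, on top of its higher tailed share there. Other tailed ends were more common in Ia_high, namely that at base 21 and that at base 20 (1.05% of 3p reads in Ia_low and 2.48% in Ia_high). When the comparison is held to reads with 22 encoded bases, the difference in tailed share is 8.92 points in place of 15.3.

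**Figure D3:**
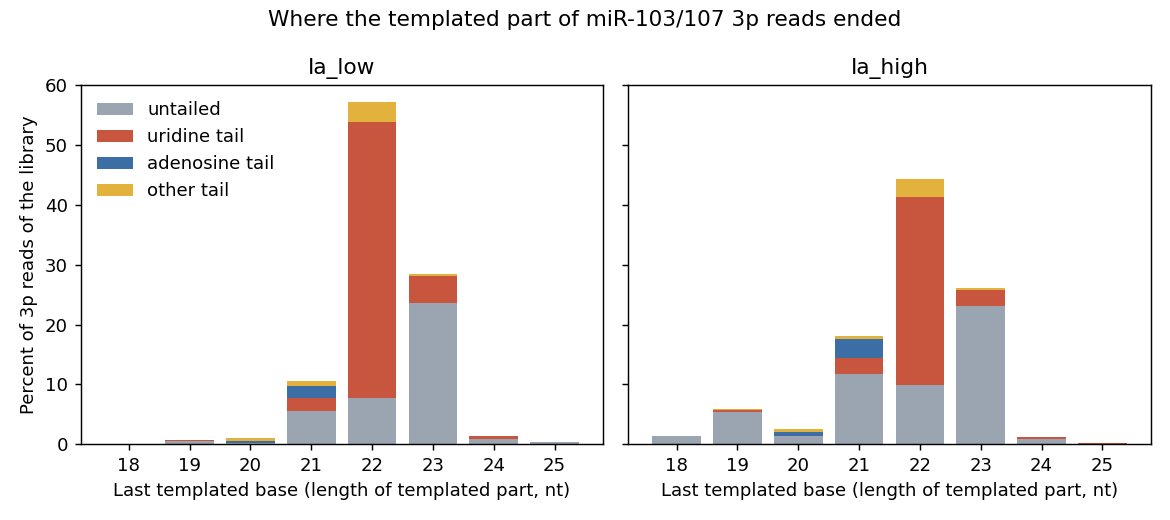
Share of miR-103/miR-107 3p reads (vertical axis, percent of the 3p reads of the library) by the last encoded base (horizontal axis, counted in nt from base 1), in Ia_low (left) and Ia_high (right). Colours give untailed reads and reads with uridine, adenosine or other tails. The bar at base 22 holds 57.2% of reads in Ia_low and 44.3% in Ia_high, most of it uridine-tailed, and the bar at base 23 is mostly untailed.

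The choice made at each base can be followed along the reads. After the first 22 bases of miR-103, the read ended in 7.31% of cases in Ia_low and 10.03% in Ia_high, went on with the encoded adenosine in 34.9% and 39.7%, and went on with uridine in 57.5% (56.8 to 58.1) and 49.8% (49.3 to 50.3). Cytidine and guanosine followed in at most 0.333% of cases in either library. Uridine was thus more common than the encoded base at this position in both libraries. After 22 bases and 1 uridine, the read ended in 70.4% of cases in Ia_low and 73.7% in Ia_high, and a further uridine followed in 22.3% and 17.7%. After the first 23 bases, the read ended in 78.6% in Ia_low and 83.9% in Ia_high, and uridine followed in 15.4% and 10.5%. After the first 22 bases of miR-107, by contrast, the read ended in 67.1% in Ia_low and 74.1% in Ia_high and uridine followed in 20.7% and 12.6%. The uridine run after base 22 of miR-103 rarely passed 2 bases. Runs of 3 had 13 reads in Ia_low and 43 in Ia_high, and runs of 4, which lie outside the rule of at most 3 removed bases, had 0 and 11.

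Tails therefore differed between the members as well as between the libraries. Reads that fitted only the miR-103 genes were tailed in 63.8% of cases (63.2 to 64.4) in Ia_low and 54.8% (54.3 to 55.3) in Ia_high. Reads that fitted only Mir107 were tailed in 24.8% (21.2 to 28.6) in Ia_low and 15.3% (13.9 to 16.8) in Ia_high. Reads that fitted all 3 genes were tailed in 48.7% in Ia_low and 28.5% in Ia_high, with uridine on 18.8% and 10.2%. In each of these sets the tailed share was higher in Ia_low, and in both libraries it was higher for miR-103 than for miR-107. A read of a shared end with an added cytidine would be counted as untailed miR-107, which lowers the share given for miR-107.

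Read length moved with the tails. The mean length of 3p reads was 22.96 nt in Ia_low and 22.4 nt in Ia_high, and that of their encoded part 22.2 and 21.8 nt. Reads of 21 nt or fewer were 6.74% (6.44 to 7.06) of the arm in Ia_low and 21.1% (20.8 to 21.4) in Ia_high. Among untailed reads the share was 16.6% in Ia_low and 37.2% in Ia_high, and among tailed reads 0.479% and 1.98%. Length here includes the tail, so a tailed read counts as longer than its encoded part. Reads of 21 nt were tailed in 3.03% of cases in Ia_low and 4.55% in Ia_high, and reads of 20 nt in 28.0% and 15.8%. Short 3p reads were more common in Ia_high. The libraries also differed in length as a whole. Of 13739811 reads in Ia_low, 1960510 were over 30 nt, and of 16388303 in Ia_high, 267575 were. The part of this difference in the ends and tails of the 3p arm was not tested.

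Reads of the same arm that differ from the RefSeq sequence at other positions give the rate of single base differences within it. The cause of these differences was not tested. For positions 1 to 21 of the 23-base tag, reads with another base at 1 position were a median of 0.0168% of the unchanged reads in Ia_low and 0.0301% in Ia_high, and at most 0.319% and 0.180%. At position 23, reads with uridine in place of the encoded adenosine were 147% of the unchanged reads in Ia_low and 110% in Ia_high. At position 22 the values were 4.45% and 7.42%, from 265 reads in Ia_low and 987 in Ia_high. Most of these were the shared 21 bases with a tail of 2 adenosines, with 218 and 728 reads. The miR-107 tag of 23 bases gave 24 and 203 of them. Position 23 thus stood far above each of positions 1 to 21 in both libraries.

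**Figure D4:**
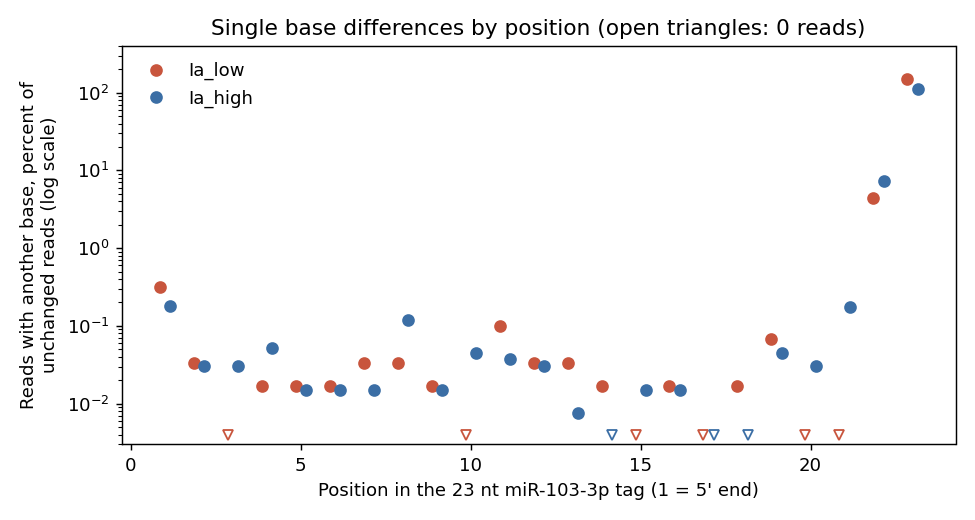
Reads that differ at 1 position from the 23-base miR-103-3p tag, as a percent of the unchanged reads (vertical axis, log scale), by position from the 5′ end (horizontal axis), with Ia_low points left of Ia_high points. Open triangles mark positions with 0 reads. Positions 1 to 21 stay at or below 0.319% in Ia_low and 0.180% in Ia_high, and position 23 is at 148.3% and 111.6%.

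The 3′ adaptor begins with the same base as a uridine tail, so tags in which the adaptor was still present were looked at separately. They are longer than 30 nt and lie outside the rule that chose the reads. Cut at the first 7 bases of the adaptor, they gave 25 reads of the 3p arm in Ia_low and 91 in Ia_high. Of these, 40.0% (21.1 to 61.3) had a uridine tail before the adaptor in Ia_low and 54.95% (44.2 to 65.4) in Ia_high. Reads of other miRNA arms in the same tags had uridine tails in 4.12% of 4345 reads in Ia_low and 5.35% of 10215 in Ia_high. For miR-16-5p it was 0 of 33 reads in Ia_low and 0 of 84 in Ia_high. Uridine tails were thus present on miR-103/miR-107 where the adaptor could be read behind them, but in these few reads Ia_low did not have the higher share and the intervals overlap.

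Set beside other miRNAs, the 3p arm of miR-103/miR-107 ranked high by its uridine tails. Among 89 arms with 1000 reads or more in each library, the median share of uridine-tailed reads was 8.34% in Ia_low and 5.20% in Ia_high, and miR-103/miR-107 ranked 3 in Ia_low and 4 in Ia_high. By its tailed share of any base it ranked 14 in Ia_low and 16 in Ia_high, against medians of 22.9% and 16.9%. It held 7.58% of all uridine-tailed miRNA reads in Ia_low and 5.77% in Ia_high, but 0.365% and 0.542% of the exact ones. The tailed share was higher in Ia_low for 67 of the 89 arms, with a median difference of 2.92 points. By this difference miR-103/miR-107 ranked 9. A tailed share at least 2-fold higher in Ia_low was found for 5.62% of the arms and at least 2-fold lower for 0%, and the ratio of 1.33 for miR-103/miR-107 is not among them.

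**Figure D5:**
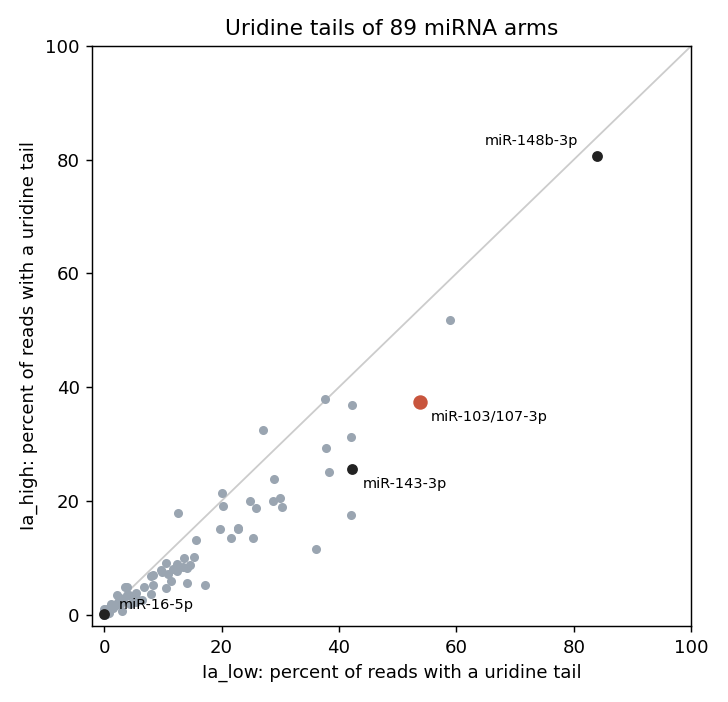
Share of reads with a uridine tail for 89 miRNA arms with 1000 reads or more in each library, in Ia_low (horizontal axis, percent) and Ia_high (vertical axis, percent). Each point is an arm, the line marks equal shares, and red marks miR-103/miR-107-3p. It lies at 53.7% in Ia_low and 37.5% in Ia_high, below the line like miR-143-3p, while miR-16-5p lies at the origin.

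The 5 arms with the highest tailed share carried different bases, and miR-148b-3p among them had mostly uridine, as miR-103/miR-107 did. miR-148b-3p was tailed in 95.3% of reads in Ia_low and 93.7% in Ia_high, with uridine on 83.9% and 80.6%. The 3p arm of Mir92-1 was tailed in 90.7% and 87.1% but with uridine on only 2.31% and 2.24%. Mir5099-3p (99.4% and 99.4%) and the 3p arm of Mir692-2 and Mir692-3 (91.3% and 79.4%) had uridine on 0.168% of reads or fewer. Exact reads of Mir5099-3p were only 11 of 1864 in Ia_low and 52 of 9034 in Ia_high. For the arm of Mir692-2 and Mir692-3 they were 116 of 1328 and 367 of 1785. Whether the tailed reads of these arms came from their hairpins was not tested. miR-101a-3p was tailed in 82.8% and 66.8%, with uridine on 20.1% and 21.4%. The profile nearest to miR-103/miR-107, by the summed absolute difference over 14 tail classes per library, was that of miR-143-3p at 36.5 points, with uridine tails on 42.2% of reads in Ia_low and 25.7% in Ia_high. miR-101b-3p (41.5 points), miR-378a-3p (42.7), miR-342-5p (48.1) and miR-30e-3p (51.6) came next, against a median of 98.7 points over 88 other arms. These likenesses describe 2 libraries.

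The miR-15/16 group carries a seed shifted by 1 base against that of miR-103 and miR-107, as the RefSeq sequences of those with the most reads show (seed in capitals).
miR-16-5p: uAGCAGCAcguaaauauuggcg
miR-15a-5p: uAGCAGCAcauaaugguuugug
miR-15b-5p: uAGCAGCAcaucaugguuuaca
miR-322-5p: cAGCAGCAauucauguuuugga
The shared 5′ sequence did not go with shared tails. miR-16-5p, the most abundant of the group at 20260.0 CPM in Ia_low and 15110.0 CPM in Ia_high, was tailed in 2.11% of reads in Ia_low and 2.09% in Ia_high, with uridine on 0.0413% and 0.0830%. miR-15a-5p was tailed in 13.7% in Ia_low and 12.2% in Ia_high, and miR-15b-5p in 3.98% and 1.45%. miR-322-5p was the exception, with uridine tails on 69.6% of 888 reads in Ia_low and 61.7% of 1210 reads in Ia_high. For miR-195a-5p (10 and 15 exact reads), miR-497a-5p (0 and 19) and miR-503-5p (0 and 5) the reads were too few to give a tailed share. By level, 0 of these 5p arms at a mean of 10 CPM or more reached 2-fold. Over all 237 miRNA arms at that level, 8.86% were called higher in Ia_low and 32.5% lower. The ratios were 1.34 for miR-16-5p, 1.02 for miR-15a-5p, 0.569 for miR-15b-5p and 1.17 for miR-322-5p. The 3p arm of Mir16-1, which is outside this count, was called lower. It had 56.5 CPM in Ia_low and 364 CPM in Ia_high, a ratio of 0.155 (0.131 to 0.183).

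Fragments of host gene messages were scarce. Messages were measured as distinct tags of 20 to 30 nt that match 1 protein-coding gene, of which there were 141283 in Ia_low and 342595 in Ia_high. Of 7124 genes with 10 fragments or more, 6.25% passed 2-fold on the higher side in Ia_low and 8.59% on the lower side, each with an interval that left out 1. Pank3, the host of Mir103-1, had 22 fragments in Ia_low and 48 in Ia_high, a scaled ratio of 1.11 (0.639 to 1.88). Pank2, the host of Mir103-2, had 7 and 28, a ratio of 0.606 (0.224 to 1.42). Pank1, the host of Mir107, had 1 and 4 fragments, too few for a ratio to be read, and the paralog Pank4 had 1 and 6. A difference between hosts was not detectable at this depth.

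Of the 10 genes of tailing and trimming, all were measured and 0 passed the 2-fold rule in either direction, with a median log2 ratio of -0.16 against -0.11 over all genes tested. Tut7, a uridylyltransferase, had 32 fragments in Ia_low and 72 in Ia_high, a ratio of 1.08 (0.688 to 1.66). Its relative Tut4 had 16 and 55, a ratio of 0.705 (0.377 to 1.25). Tent2, which adds adenosine, had 22 and 57, a ratio of 0.936 (0.545 to 1.56). The wide intervals leave room for differences near 2-fold in both directions for several of them. The lowest ratios were those of Dis3l2, a nuclease that degrades uridylated RNA, with 1 and 10 fragments (ratio 0.243, 0.00559 to 1.71), and of Parn, a poly(A) nuclease, with 2 and 18 (0.269, 0.0303 to 1.13). Counted by reads in place of fragments, Dis3l2 (0.328), Parn (0.252) and the poly(A) polymerase Tent4a (2.02, with 6 and 12 fragments) passed 2-fold. The share of all genes that pass by reads was not counted, and reads include PCR copies. These calls by reads therefore have no background to be read against.

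Of 4 genes published as targets of miR-103 or miR-107, 3 were measured and 1 was called. Klf4, a transcription factor of monocytes among other cells, had 136 fragments in Ia_low and 160 in Ia_high, a ratio of 2.06 (1.63 to 2.61) on the higher side. Dicer1 had 18 and 42, a ratio of 1.04 (0.563 to 1.85). Dapk1, a kinase that promotes cell death, had 2 and 17, a ratio of 0.285 (0.0320 to 1.20). Cav1, which encodes caveolin of the cell surface, had 0 fragments in both libraries. Monocyte markers were also higher in Ia_low, as given above, and their part in the value of Klf4 was not tested.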

How the data were processed

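Per the labels' protocols, CD11c-enriched spleen cells were sorted by Ia to a purity above 95%, RNA below 30 bases was cut from a gel, adaptors were ligated and 12 PCR cycles were run before Solexa sequencing. The deposited values are raw counts of reads per distinct sequence, made by the authors. How adaptors were trimmed and reads filtered, and any genome build used, is not stated in the labels. Tags have 18 to 44 nt.

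Those of 18 to 30 nt were searched for exact matches in 1178 hairpins of GENCODE M21 (GRCm38). Unmatched tags were trimmed by 1 to 3 nt at the 3′ end, keeping at least 15, and the longest encoded match was used. Arms sharing their main tag were merged, and reads fitting several arms were left out (0.185% in Ia_low, 0.295% in Ia_high). An arm at a mean of 10 CPM was called at a ratio of 2-fold or more with an interval excluding 1. Genes with 10 fragments or more were called likewise. Ratios are Ia_low over Ia_high. The member genes, the gene lists and the rules were chosen with earlier results of these data known. Named are all member arms, the miR-15/16 relatives (Mir646 is not used here), host, tailing and target genes, the 5 highest tailed arms and the 5 nearest tail profiles. Sequences are from RefSeq (GRCm38.p6). For each of the 3 genes the RefSeq and GENCODE hairpins are equal. The matching was tested on simulated tags whose tails never began with a base that a member gene encodes there. Tails that look like encoded bases were thus not simulated. Python 3.11.15, numpy 2.4.6, scipy 1.17.1 and matplotlib 3.10.9 were used.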

Additional observations from a re-analysis of the deposited data

Results flagged for a closer look

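Tags over 30 nt with the 3′ adaptor still present lie outside the reads on which the comparisons rest, and they held a signal of their own. In these tags the share of miR-103/miR-107 3p reads with a uridine tail was 40.0% of 25 reads in Ia_low and 54.95% of 91 reads in Ia_high, above the 4.12% and 5.35% of other miRNA arms. The intervals of the libraries overlap.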

How the results depend on the processing

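Of 53 alternatives, 27 stayed within the counting interval of the value (or within 1.5 times, for counts), 25 moved and 1, the only value past the 2-fold mark to change sign, reversed. Some of the 27 could not have moved. Dividing counts by the most common reads per tag leaves each ratio as it is and widens only its interval. Keeping tags that fit another hairpin changed nothing, because 0 tags did. Changes of sign in values with no call, all given below or in the range for miR-103, are counted as moved, and changes of sign of the 5p arm lay within its interval. The log2 ratio of the exact 3p arm, -0.57, became -1.44 scaled to all reads, -0.18 centred on the median arm, -0.19 with tailed reads added, -0.40 at 20 to 25 nt, -0.52 at 22 nt and 0.27 by distinct tags. For miR-107, -1.22 became -2.08 scaled to all reads and -0.83 centred, which is short of 2-fold, and it reversed to 0.66 by distinct tags (4 in Ia_low and 5 in Ia_high). Widened by the reads per tag, the intervals were 0.632 to 0.718 for the arm, 0.879 to 1.02 for miR-103 and 0.309 to 0.582 for miR-107. For miR-103 the log2 ratio ran from -0.95 scaled to all reads to 0.47 by distinct tags, so no direction is given for it. The difference in tailed share, 15.3 points, became 14.4 with at most 1 base trimmed, 8.57 in reads of 22 to 24 nt, 9.002 in reads of miR-103 only, 8.92 with 22 encoded bases, -1.75 by distinct tags and -8.13 in tags with the adaptor present. The difference in miR-107 share, -5.32 points, became -3.31 with tailed reads, -12.2 at 22 nt and -1.06 past base 22. By reads in place of fragments, 3 tailing genes in place of 0 and 2 targets in place of 1 were called. The share of all genes called by reads was not counted. Without an abundance floor, 61 arms in place of 21 were called higher and 87 in place of 77 lower. The comparisons by adaptor tags, miR-103 reads, 22 encoded bases, 22 nt and ends past base 22 were chosen after seeing the data. The cause was not tested for any of these shifts. No paired analysis was possible because each population has 1 library, and for the same reason no library could be left out. Few reads or fragments limit the 5p arm, the adaptor tags, Cav1, Pank1, Pank4, Dis3l2 and miR-503-5p.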
